A study of Saccharomyces cerevisiae with 72 samples.

Results

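The genes described here encode the protein factors of the Saccharomyces cerevisiae spliceosome other than its helicases. They were taken by gene symbol, as PRP, SNU or CWC followed by digits (the helicase genes PRP2, PRP5, PRP16, PRP22, PRP28 and PRP43 and the unrelated PRP20 left out), LSM2 to LSM8, and 34 further names such as MUD2, SLU7, AAR2 and STO1. In all, 70 of the 982 genes on the arrays were members, 40 of them spelled out by name and 30 found by prefix, and SPP382 was the 1 name of the rule with no probe here. By role they fell into 10 genes of the U1 snRNP, 4 for branch point and cap binding, 10 of the U2 snRNP with SF3a and SF3b, 7 of the LSM ring, 15 of the U5 and U4/U6 snRNPs and the tri-snRNP, 19 of the Prp19 complex and its partners, 2 for the second step and release, and 3 of the RES complex. Of the 70, 66 had 1 probe, and LSM2, LSM7, MUD1 and STO1, whose genes hold introns, had an exon, an intron and a junction probe.

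Splicing microarrays compared a test RNA with a matched reference RNA on 72 arrays, which made 36 dye-swapped pairs in 11 groups. Wild type in 50 mM 3-aminotriazole (3-AT, an inhibitor of histidine synthesis) was set against untreated wild type at 2, 4, 6, 10, 15 and 20 min, and the gcn2 deletion in 50 mM 3-AT against the untreated gcn2 deletion at the same times. A further course set the gcn2 deletion directly against wild type, both in 50 mM 3-AT, at those times. The prp8-1 mutant at 37 °C in YPD medium was set against wild type at 37 °C at 2 to 20 min, and wild type in 10% ethanol against untreated wild type at 5, 10, 15, 20, 25 and 30 min. The rai1, rrp6, rtt103, ski2, upf1 and xrn1 deletions were each set against wild type with no treatment and no time, under the growth label MIN, which the labels do not spell out. Every group had 1 pair of arrays per time point or strain. No label says that time points came from separate cultures, so the p-values below, which use the 6 time points of a course as replicates, measure the spread along that course. RNA named alike in the labels served in more than 1 of the 3-AT courses, so those comparisons may share samples, which no label states. The labels also do not say whether the 6 deletion strains shared one wild type RNA.

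The deleted genes bore out the strain labels as far as they were measured, with GCN2 at -4.35 on the direct arrays (-4.68 to -3.88 over 6 times), RRP6 at -4.01, NAM7, which is UPF1, at -3.50, XRN1 at -3.235, SKI2 at -2.50 and RAI1 at -2.37, while RTT103 had no probe. The prp8-1 strain and all 6 deletion strains also differed from their wild type in mating type, since the α-factor gene MF(ALPHA)1 stood between -6.395 and -4.92 there and the a-factor gene MFA2 between 4.26 and 5.78. In these 7 comparisons the mutation and the mating type cannot be told apart. MF(ALPHA)1 was also at -1.10 in ethanol and at 0.74 in the gcn2 deletion over wild type, where MFA2 was at -0.20 and 0.18, and in 3-AT over untreated the pair lay between -0.24 and -0.060. No deleted gene checks the direction of the wild type courses in 3-AT and ethanol, which was read from the same channel order, so it is likely rather than checked. Total RNA of whole cultures was compared, so fewer cells carrying a transcript and less of it per cell cannot be told apart.

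The spliceosome removes introns in successive reactions. The U1 snRNP pairs with the 5′ splice site, the branch point protein Msl5 with its partner Mud2 and then the U2 snRNP mark the branch point, and the U4/U6.U5 tri-snRNP joins before the Prp19 complex stabilises the catalytic core. Rings of Sm or LSM proteins hold the snRNAs, with LSM2 to LSM8 around U6. Yeast LSM2 to LSM7 also form, with Lsm1, a cytoplasmic ring that acts in mRNA decay. Some of these proteins have further posts, such as Snu13, which also binds box C/D snoRNAs, and Sto1 and Cbc2, which bind the cap of nuclear RNA.

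Levels below are log2 ratios of the exon probe, or of the only probe, averaged over repeated spots and over the dye-swapped arrays of a pair. A course was fitted with limma as a mean at the middle of its times plus a straight slope, and a level was called at an adjusted p of at most 0.05 over 976 gene levels. On this scale most members moved little. Their standard deviation over genes was 0.17 in wild type in 3-AT, against 0.32 over all gene levels, 0.20 against 0.30 in the gcn2 deletion, 0.27 against 0.70 in prp8-1 and 0.45 against 0.65 in ethanol. The share of members called was below the background in 4 courses and at it in ethanol, so that members stood apart, where they did, by direction and by single genes. The map of the 70 genes over the 11 comparisons shows the pale 3-AT columns beside the ethanol, upf1 and xrn1 columns.

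**Figure D1:**
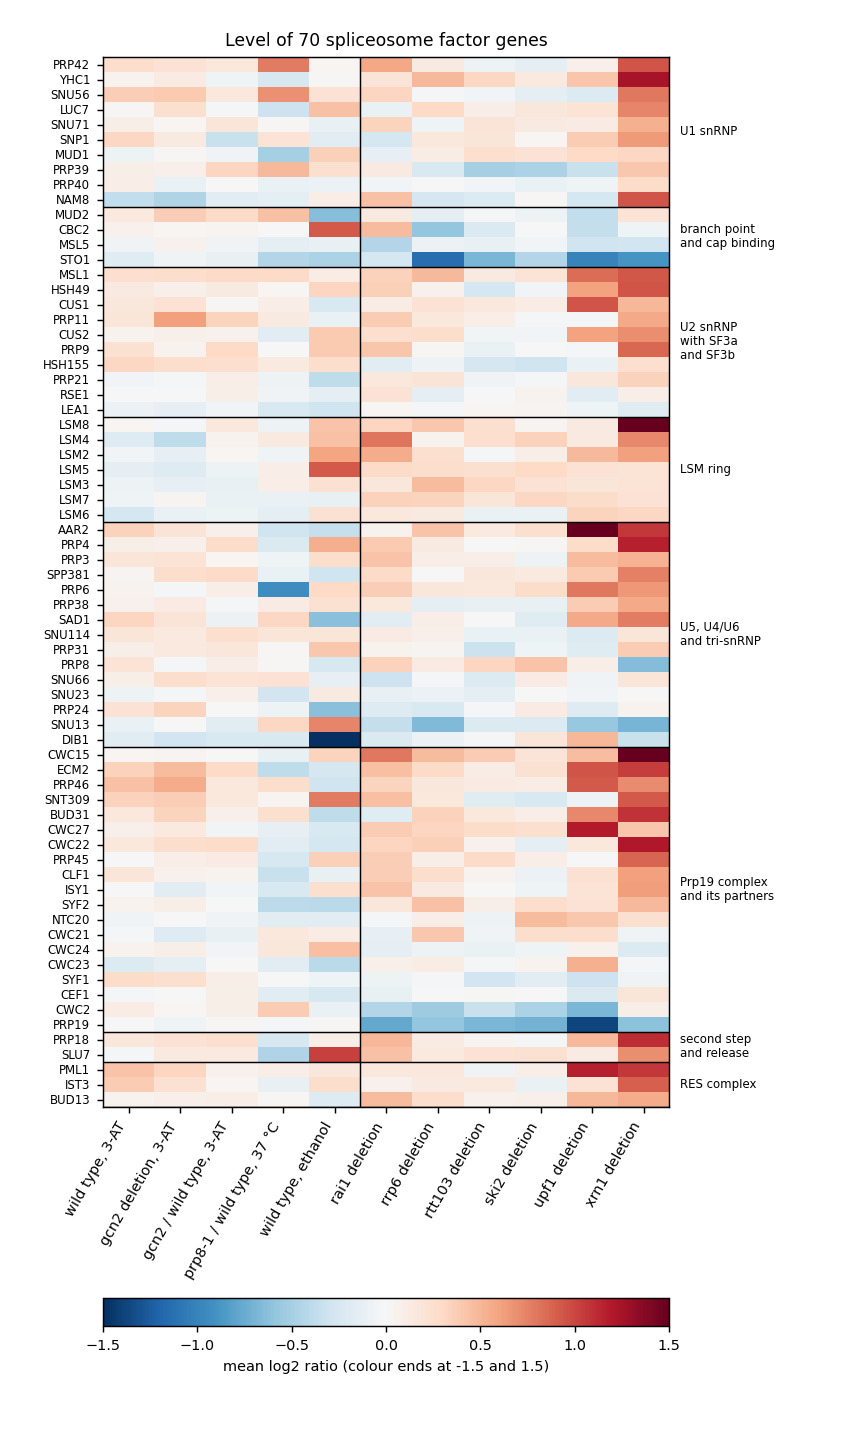
Mean log2 ratio of each of the 70 members (rows, by role) in the 11 comparisons (columns, with 5 courses on the left, each the mean of 6 times, and 6 deletion strains on the right, each 1 dye-swapped pair). Red is higher and blue lower in the test RNA. DIB1 in ethanol (-1.98), PRP6 in prp8-1 (-0.94), the blue PRP19 cells of the deletion strains and the red xrn1 column stand out.

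The 3-AT course of wild type follows the transcripts over the first minutes of treatment. Of 70 members 30 rose and 9 fell, which is 55.7% called, while 67.2% of all 976 gene levels were called (limma). Members were called higher in 42.9% of cases and lower in 12.9%, against 36.0% and 31.2% of all gene levels. Their median level went from 0 at 2 min to 0.20 at 20 min, while that of all gene levels reached 0.050. A trend up was called in 27 members and a trend down in 5, that is 38.6% and 7.14%, against 25.2% and 17.6% of all gene levels. Without the 20 min point 17 trends up were called, while those of all gene levels went from 246 to 192. Without the 2 min or the 4 min point 3 trends down were called, while those of all gene levels went from 172 to 126 or 125. By role, the calls were spread over the U1 proteins (5 higher, 1 lower of 10), the U2 proteins (6 and 0 of 10), the tri-snRNP (7 and 3 of 15), the Prp19 complex (8 and 1 of 19) and the RES complex (2 and 0 of 3), and in the LSM ring 0 rose and 3 of 7 fell. Without the 20 min point 3 U1 genes were higher.

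The highest level was that of PRP46, a WD-repeat protein gene of the Prp19 complex. Its log2 ratio was -0.013, 0.15, 0.35, 0.61, 0.75 and 0.76 at 2, 4, 6, 10, 15 and 20 min, with a mean of 0.43 ± 0.0463 (SE, n = 6, limma adjusted p = 0.000166) and a slope of 0.44 per 10 min. SNU56, a U1 protein gene, ran 0.006, 0.048, 0.26, 0.38, 0.70 and 0.82 over the same times, a mean of 0.37 ± 0.0297 (SE, n = 6, limma adjusted p = 6.01e-05). Its slope of 0.48 ± 0.0471 (SE) per 10 min was the steepest of the members (limma adjusted p = 0.000481). HSH155, which encodes the large SF3b subunit that clamps the branch helix, ran -0.040, 0.052, 0.13, 0.39, 0.59 and 0.76, with a slope of 0.46 per 10 min (limma adjusted p = 0.000345). All of these genes were near 0 at 2 min and highest or nearly so at the end.

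The RES genes PML1 and IST3, whose complex holds precursor RNA before catalysis, behaved less evenly. PML1 stood at 0.25, 0.49, 0.46, 0.49, 0.43 and 0.46, so that it was above 0 at 2 min already and flat from 4 min on (mean 0.43 ± 0.0371 SE, n = 6, limma adjusted p = 7.1e-05, slope 0.054 per 10 min). IST3 was at 0.29, 0.25, -0.010, 0.34, 0.60 and 0.81, with a dip to about 0 at 6 min and a mean of 0.38. The third RES gene, BUD13, was not called (mean 0.052, limma adjusted p = 0.274). At 2 min the arrays of the pair correlated at -0.26 over members and 0.229 over all gene levels, so single values at that time are uncertain.

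The lowest levels among the called members were those of NAM8, LSM6, CWC23 and LSM4. NAM8, a U1 RNA-binding protein gene known for its part in meiotic splicing, was at -0.099, -0.27, -0.40, -0.31, -0.61 and -0.54, below 0 at every time (mean -0.37 ± 0.0401 SE, n = 6, limma adjusted p = 0.000179). The same gene was also the lowest member in the gcn2 deletion, at -0.25, -0.25, -0.40, -0.52, -0.62 and -0.68 (mean -0.45 ± 0.0362 SE, n = 6, limma adjusted p = 4.7e-06). CWC23, a J-domain protein gene of spliceosome disassembly, had a mean of -0.21 in wild type with 0 of 6 times above 0, and -0.15 in the deletion.

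In the gcn2 deletion, which lacks the kinase that senses uncharged tRNA, 31 members rose and 10 fell in 3-AT. That is 58.6% called, against 61.5% of all gene levels (limma), with 44.3% higher and 14.3% lower against 33.1% and 28.4%. A trend up was called in 27 members (38.6%, background 28.2%) and a trend down in 13 (18.6%, background 24.0%), with 52.2% of all gene levels called for either. Without the 20 min point these were 17 and 6, and without the 2 min point 7 were down. All gene levels went from 275 up and 234 down to 174 and 141 without the 20 min point. Without the 2 min point 179 of them were down. The count of lower members was 3 without the 15 min or the 20 min point and 6 without the 10 min point. Of all 976 gene levels 277 were lower with all times, 211 without the 15 min or the 20 min point and 252 without the 10 min point. Of the LSM ring 0 of 7 rose and 3 fell, the U2 proteins gave 4 higher and 1 lower of 10, and the tri-snRNP gave 9 and 1 of 15. PRP11, an SF3a subunit gene, was highest, at 0.16, 0.13, 0.63, 0.75, 0.98 and 1.02, a mean of 0.61 ± 0.056 (SE, n = 6, limma adjusted p = 1.2e-05). In wild type the same gene went up to 0.33 at 6 min and back to 0.13 at 20 min. PRP46 ran -0.057, 0.22, 0.51, 0.70, 0.93 and 1.00 in the deletion (mean 0.55 ± 0.0537 SE, n = 6, limma adjusted p = 1.73e-05), and SNU56 had the steepest slope of the members, 0.59 ± 0.0603 (SE) per 10 min (limma adjusted p = 5.56e-05).

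ECM2, a Prp19-complex gene that contacts U6 snRNA, was at 0.031, 0.31, 0.49, 0.47, 0.71 and 0.84 (mean 0.47 ± 0.0447 SE, n = 6, limma adjusted p = 1.48e-05), above 0 at each time, and in wild type its mean was 0.35. MUD2, the partner of the branch point protein, climbed from -0.043 at 2 min to 0.81 at 20 min (mean 0.37 ± 0.0379 SE, n = 6, limma adjusted p = 2.42e-05), whereas in wild type it peaked at 0.33 at 10 min. DIB1, a small tri-snRNP protein that blocks early activation, had a mean of -0.28 ± 0.045 (SE, n = 6, limma adjusted p = 0.000387) and was below 0 at all 6 times. Without a slope term in the fit the counts of higher and lower members were 19 and 5 in wild type and 18 and 3 in the deletion. The counts of all gene levels without a slope term are not given for these courses. A general loss of calls therefore cannot be told apart from a loss among members.

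In both 3-AT courses the LSM ring had 0 genes called higher and 3 of 7 (42.9%) called lower, where 31.2% of all gene levels were lower in wild type and 28.4% in the deletion. In the deletion the 3 became 1 without the 10, 15 or 20 min point and 5 without the 2 min point. In wild type the median of its 7 genes began at 0.008 at 2 min and ended at -0.285 at 20 min, and LSM4, LSM5 and LSM6 were called lower, each with a trend down. LSM6 ran -0.002, -0.051, -0.23, -0.34, -0.45 and -0.54 (mean -0.27 ± 0.0296 SE, n = 6, limma adjusted p = 0.00019), LSM4 0.038, -0.013, -0.18, -0.18, -0.35 and -0.50 (mean -0.20) and LSM5 0.034, 0.20, -0.15, -0.20, -0.20 and -0.61 (mean -0.15). LSM8, the subunit that sets the nuclear ring apart, stayed within -0.059 and 0.18 and was not called, and neither were LSM2, LSM3 and LSM7. LSM8 in the deletion had a called trend down (slope -0.227 per 10 min, limma adjusted p = 0.021) and was at -0.336 at 20 min. In the deletion all 7 genes were above 0 at 2 min, with a median of 0.35, and all 7 were below 0 at 20 min, with a median of -0.42. There LSM4 was at 0.12, -0.34, -0.36, -0.38, -0.60 and -0.72 (mean -0.38 ± 0.0519 SE, n = 6, limma adjusted p = 0.000148) and LSM5 at 0.49, -0.20, -0.052, -0.20, -0.45 and -0.77 (mean -0.20). A trend down was called in 3 of 7 genes in wild type and in 6 of 7 in the deletion, by limma, beside 17.6% and 24.0% of all gene levels. Without the 2 min point the deletion gave 3 such trends, without 20 min also 3, and the slope was below 0 in 7 of 7 genes in either case. LSM4 in wild type was at -0.37 with the test RNA in Cy5 and at -0.021 in Cy3, and was not called without a slope term (limma adjusted p = 0.0602). Of the 3 genes called lower in the deletion, 2 had opposite signs in the dye orientations, LSM5 at -0.40 in Cy5 and 0.010 in Cy3 and LSM3 at 0.018 and -0.275. LSM5 there was also not called without a slope term (limma adjusted p = 0.305). LSM6 in wild type was at -0.30 and -0.24. The plot of the 3-AT courses sets the ring beside 8 rising genes.

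**Figure D2:**
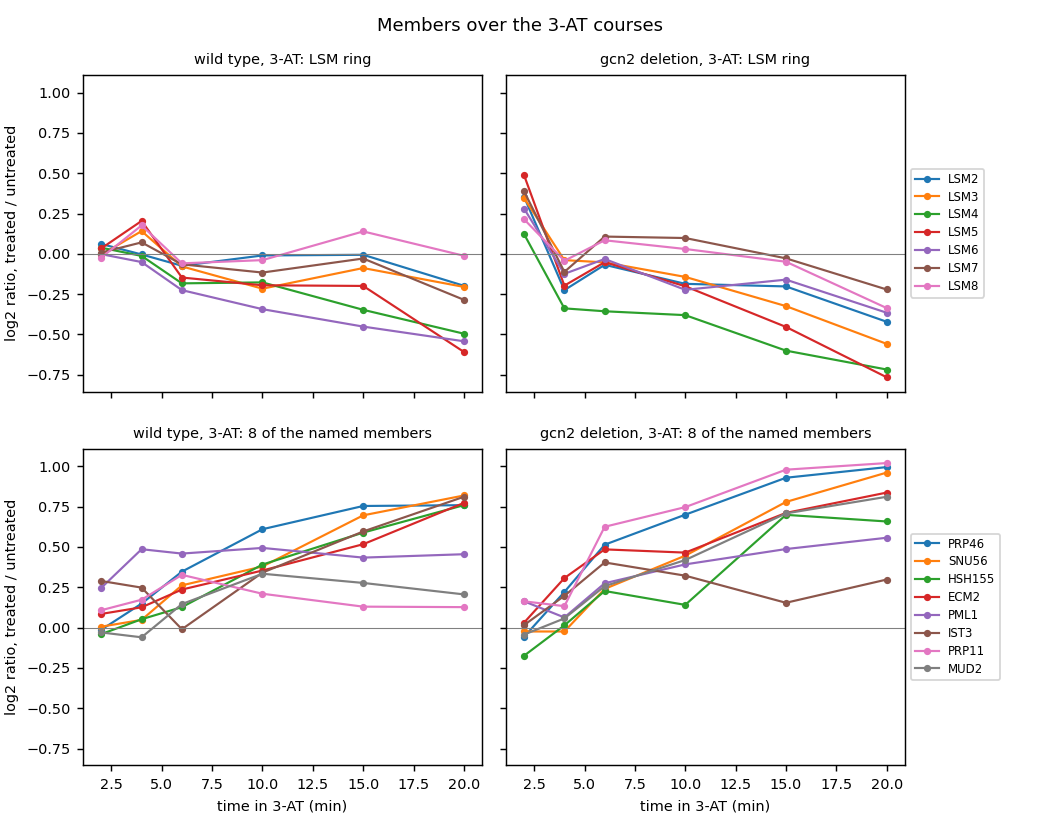
Log2 ratio of treated over untreated RNA (y axis) against minutes in 3-AT (x axis) for the 7 LSM ring genes (top) and 8 named members (bottom) in wild type (left) and the gcn2 deletion (right), each point being the mean of 1 dye-swapped pair. All 7 LSM lines end below 0 at 20 min in both strains, PRP46 ends at 0.76 and 0.995, and PRP11 ends at 0.13 (left) and 1.02 (right).

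Whether the response to 3-AT differed between wild type and the gcn2 deletion was tested in 1 fit of both courses, with a slope for each. Of 70 members 5 were higher in wild type and 7 lower, which is 17.1% called against 19.5% of all gene levels (limma), with 9.63% of all gene levels higher and 9.84% lower. PRP11 responded less in wild type, at 0.18 against 0.61, differing by -0.43 ± 0.0716 (SE over 6 and 6 times, limma adjusted p = 0.00158). LUC7, a U1 protein gene for 5′ splice site choice, stood at 0.012 and 0.25, differing by -0.23 ± 0.047 (SE over 6 and 6 times, limma adjusted p = 0.00532), and wild type was lower at 6 of 6 times. SPP381, a tri-snRNP gene that works with Prp38, differed by -0.23 ± 0.0528 (SE over 6 and 6 times, limma adjusted p = 0.0119). PRP8, whose protein lies at the heart of the catalytic core, was higher in wild type, at 0.21 against -0.034, differing by 0.24 ± 0.0504 (SE over 6 and 6 times, limma adjusted p = 0.00586), at 5 of 6 times. These calls need the slope term. Without it 0 of 70 members and 0 of 976 gene levels were called (limma, 7 and 133 at an unadjusted p under 0.05). Leaving out 1 time also moved them, to 10 higher without 2 min, to 2 higher and 4 lower without 10 min, to 0 and 2 without 15 min and to 2 and 2 without 20 min. SPP381 was not called without the 10, 15 or 20 min point (adjusted p of 0.0546, 0.11 and 0.0697), nor PRP8 without the 15 min point (0.0667).

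The arrays of the gcn2 deletion directly over wild type in 3-AT also hold what differed before treatment and share RNA names with both courses. On them 27 members were called higher in the deletion and 9 lower, 51.4% against 60.1% of all gene levels (limma), with 38.6% higher and 12.9% lower against 35.1% and 25.0%. With each array centred on its median the counts were 22 and 12, which takes the higher share of the calls from 75.0% to 64.7%. By role the U2 proteins gave 6 higher and 0 lower of 10, the Prp19 complex 7 and 0 of 19, the tri-snRNP 7 and 3 of 15, the U1 proteins 4 and 2 of 10 and the LSM ring 0 and 3 of 7, with LSM3 lowest in the ring at -0.115. Without the 4 min point the Prp19 complex had 4 higher and the ring 0 lower. Without the 6 min point the ring had 2 higher and 1 lower, and without the 15 min point 0 and 1, so its direction was not stable here. LSM3 was at 0.041 in Cy5 and -0.27 in Cy3, and LSM7, also called lower, at -0.25 and 0.044. Both are among 7 of the 36 called members with opposite signs in the dye orientations, as is PRP8, at -0.017 and 0.22. PRP11 rose along the course, at 0, -0.013, 0.22, 0.43, 0.64 and 0.70 (mean 0.33 ± 0.036 SE, n = 6, limma adjusted p = 0.000112). SNP1, the yeast U1-70K gene, fell along it, at -0.061, -0.051, -0.31, -0.34, -0.54 and -0.67 (mean -0.33 ± 0.0323 SE, n = 6, limma adjusted p = 6.16e-05). DIB1 likewise was at -0.016, -0.046, -0.18, -0.26, -0.36 and -0.52 (mean -0.23 ± 0.0274 SE, n = 6, limma adjusted p = 0.000183). The U2 protein gene MSL1 was flat at 0.30, 0.19, 0.24, 0.33, 0.30 and 0.37 (mean 0.29), and the mean was 0.33 for the U1 gene PRP39 and -0.15 for SNU13. PRP9, of SF3a, had a mean of 0.29, with 0.001 in Cy5 and 0.59 in Cy3, and NAM8 -0.15, with -0.34 and 0.036, so these means came from 1 dye orientation. The direct mean of SPP381 was 0.29 and of LUC7 -0.031. PRP8 (mean 0.10) stood at 0.29, 0.33, 0.12, 0.044, -0.063 and -0.12 there, above 0 at first and below 0 at 15 and 20 min.

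The prp8-1 course sets a temperature-sensitive mutant of the core factor Prp8 against wild type at 37 °C. In it 23 members were higher and 30 lower, which is 75.7% called, against 78.9% of all gene levels (limma), with 32.9% higher and 42.9% lower against 34.7% and 44.2%. The level of PRP8 itself was not called, at 0.25, 0.16, 0.13, -0.041, -0.14 and -0.25 at 2 to 20 min (mean 0.020 ± 0.0277 SE, n = 6, limma adjusted p = 0.513), with -0.256 in Cy5 and 0.297 in Cy3 and a trend down of -0.28 per 10 min. By role the U1 proteins gave 4 higher and 4 lower of 10, the Prp19 complex 5 and 11 of 19, the tri-snRNP 5 and 6 of 15, the U2 proteins 4 and 2 of 10, and the LSM ring 3 and 2 of 7. Without the 4 or 6 min point 2 U2 genes were higher, and 1 LSM gene was higher without the 4, 6 or 15 min point and 1 lower without the 2, 4, 10 or 15 min point. The lowest gene of the Prp19 complex was SYF2 at -0.39, and the LSM ring stayed between -0.135 (LSM6) and 0.14. A trend down was called in 11 members and a trend up in 1, against 21.7% and 13.4% of all gene levels, and without the 2, 4 or 15 min point 4 were down, without the 6 min point 5. Of all gene levels 212 had a trend down, and 149 to 156 with 1 of these times left out. Centring each array turned the totals to 26 higher and 23 lower.

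Of the 10 U1 genes 4 were higher and 4 lower, beside 34.7% and 44.2% of all gene levels. Of those called lower, LUC7 (0.017 in Cy5 and -0.632 in Cy3) and NAM8 (-0.343 and 0.064) had opposite signs in the dye orientations. PRP42, which forms a dimer with Prp39 in yeast U1, was at 0.77, 0.87, 0.76, 0.72, 0.72 and 0.81, the highest member (mean 0.78 ± 0.0329 SE, n = 6, limma adjusted p = 6.65e-07). SNU56 ran 0.88, 0.89, 0.75, 0.63, 0.51 and 0.43, so that it started high and came down (mean 0.68 ± 0.0295 SE, n = 6, limma adjusted p = 7.32e-07). PRP39 had a mean of 0.49, but -0.20 with the mutant RNA in Cy5 and 1.18 with it in Cy3, so its direction is not settled here. MUD1, a gene of the U1 snRNP, was at -0.19, -0.44, -0.44, -0.72, -0.63 and -0.60 (mean -0.50 ± 0.0512 SE, n = 6, limma adjusted p = 5.71e-05). MUD2 was at 0.34, 0.43, 0.44, 0.47, 0.41 and 0.57, above 0 throughout (mean 0.44).

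PRP6, a tri-snRNP scaffold gene with TPR repeats, was the lowest member. It fell from -0.54 at 2 min to -1.19 at 20 min, through -0.65, -0.94, -1.11 and -1.20, with a mean of -0.94 ± 0.0511 (SE, n = 6, limma adjusted p = 2.26e-06), and both dye orientations gave it alike (-0.97 and -0.90). AAR2, which escorts Prp8 during U5 assembly, went from 0.12 to -0.53, with a slope of -0.35 ± 0.078 (SE) per 10 min (limma adjusted p = 0.0137). SLU7, a gene of 3′ splice site choice, had a mean of -0.45 ± 0.0513 (SE, n = 6, limma adjusted p = 0.000103) and STO1 of -0.44 ± 0.0549 (SE, n = 6, limma adjusted p = 0.000171), the last with -0.84 in Cy5 and -0.049 in Cy3. Among the 53 called members 14 had opposite signs in the dye orientations, and the members' median was -0.163 with the mutant RNA in Cy5 and 0.083 in Cy3, against -0.062 and -0.028 for all gene levels. Of the 7 LSM genes the calls of LSM3, LSM4, LSM5 and LSM6 were among those 14.

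Of the members, 4 carry introns and report on their own splicing. Intron and junction probes were recognised from their spacing on the slide and from prp8-1 itself, so both indices of that course are a description. The index is the log2 ratio of the intron probe minus that of the exon probe. In prp8-1 it stood highest in STO1, at 1.77, 2.46, 2.55, 2.47, 2.67 and 2.41 over the 6 times (mean 2.39), followed by LSM2 at 1.40, MUD1 at 0.66 and LSM7 at 0.64, and the median of all 229 genes with such probes was 1.28. The junction minus exon index of that course rests on the same assignment and is likewise given with no test. Its mean was -0.42 in LSM2, -0.45 in LSM7, -0.68 in MUD1 and -0.11 in STO1, and the median of the 229 genes was -0.096. In LSM7 it ran -0.013, -0.12, -0.36, -0.69, -0.73 and -0.80, near 0 at first and lowest at the end. MUD1 thus had the junction probe far below 0 (mean -1.18), the exon probe less so (-0.50) and the intron probe slightly above 0 (0.16).

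In ethanol the intron index rose in STO1 (0.41 ± 0.0619 SE, n = 6, limma adjusted p = 1.93e-05) and LSM7 (0.33 ± 0.0699 SE, n = 6, limma adjusted p = 0.00047) and fell in LSM2 (-0.39 ± 0.0754 SE, n = 6, limma adjusted p = 0.000234) and MUD1 (-0.19 ± 0.0621 SE, n = 6, limma adjusted p = 0.0118), beside 78.2% of 229 genes called, 46.3% higher and 31.9% lower. The junction index of LSM7 rose at every time, at 0.58, 0.70, 0.69, 0.25, 0.60 and 0.70 (mean 0.59), and that of STO1 was -0.19, beside 48.5% higher and 29.3% lower. The ethanol indices of STO1 and of MUD1 changed sign or vanished with 1 dye orientation alone, with the STO1 intron index at -0.004 and the MUD1 one at 0.18 in Cy3, and the STO1 junction index at 0.215 in Cy5. The LSM2 intron index was -0.038 in Cy5 alone. The STO1 junction index was not called without the 5, 10, 15 or 25 min point, nor the MUD1 intron index without the 15 min point. In wild type in 3-AT the calls were the intron index of STO1 (0.21 ± 0.0532 SE, n = 6, limma adjusted p = 0.00368, above 0 at 6 of 6 times) and the junction index of MUD1 (0.20 ± 0.0326 SE, n = 6, limma adjusted p = 0.00323), beside 69.0% of 229 intron indices called (57.6% higher) and 48.9% of the junction indices (13.1% higher). With 1 dye orientation alone they came to 0.004 (Cy3) and 0.068 (Cy5). The gcn2 deletion in 3-AT gave 0 calls for these genes (limma), the nearest being the junction index of MUD1 at 0.11 (adjusted p = 0.0723). There 62.9% of the 229 intron indices and 42.4% of the junction indices were called. Where the gcn2 deletion was hybridised against wild type, the intron index of STO1 was 0.14, beside 21.8% of 229 called higher and 21.0% lower, and the junction indices of MUD1 and LSM7 were 0.15 and 0.12, beside 33.2% called. With 1 dye orientation alone these came to 0.074 (STO1, Cy3), 0.032 (MUD1, Cy5) and 0.063 (LSM7, Cy3), and the calls of STO1 and LSM7 were also lost without a slope term and with 1 of 4 times left out, 2, 4, 10 or 15 min for STO1 and 2, 4, 6 or 10 min for LSM7. The difference between the strains was called for 0 of these 8 indices (limma, adjusted p of at least 0.132), against 13.1% of all intron (11.8% higher, 1.31% lower) and 8.73% of all junction indices.

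**Figure D3:**
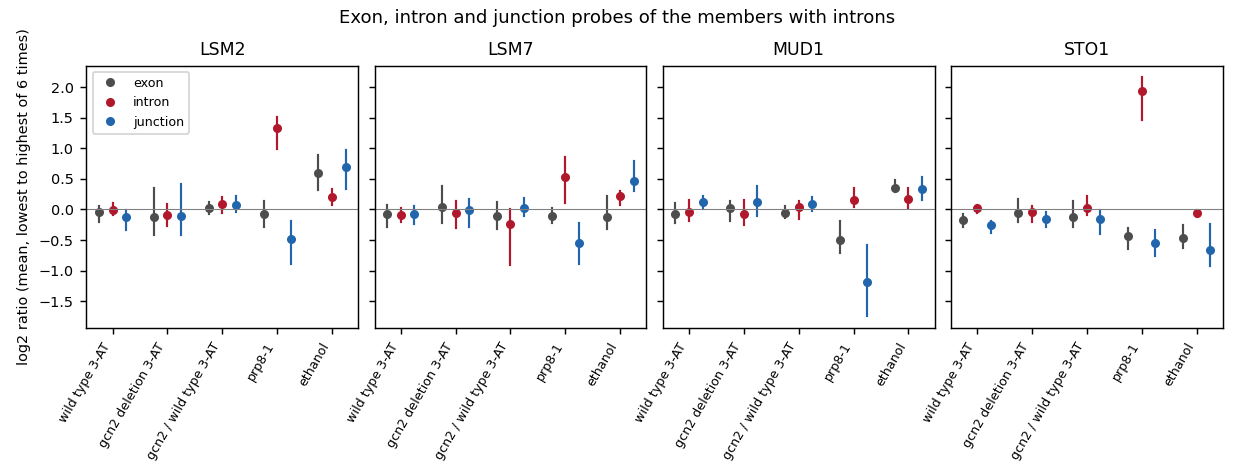
Log2 ratio of the exon, intron and junction probes (colours) of LSM2, LSM7, MUD1 and STO1 in the 5 courses (x axis), as the mean (point) and the lowest to highest of 6 times (line). In prp8-1 the intron probe lies above the junction probe in all 4 genes, by most in STO1 (1.94 against -0.55), and in ethanol the junction probe of LSM7 (0.47) lies above its exon probe (-0.12).

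Ethanol moved the members in both directions. Of 70 members 32 were higher and 24 lower over 5 to 30 min, which is 80.0% called, against 79.9% of all gene levels (limma), with 45.7% higher and 34.3% lower against 30.6% and 49.3%. The median was 0.062 for members and -0.122 for all gene levels, and by dye it was -0.019 in Cy5 and 0.114 in Cy3 for members and -0.081 and -0.181 for all gene levels. Centring each array raises all levels by 0.129, and the counts then become 38 and 14, which takes the higher share of the calls from 57.1% to 73.1%. No steady course was seen, as 0 members had a called trend (6 up and 0 down at an unadjusted p under 0.05, and 2 of 976 gene levels were called, limma). The LSM ring had 6 of 7 genes higher, the tri-snRNP 8 higher and 7 lower of 15, the U2 proteins 5 and 4 of 10, the Prp19 complex 5 and 9 of 19, and the U1 proteins 4 and 1 of 10. In the Prp19 complex the lowest gene was CWC23 at -0.40, and among the U2 proteins it was PRP21, of SF3a, at -0.39.

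DIB1 was the lowest member by far. Its log2 ratio was -2.03, -1.57, -2.65, -1.99, -2.35 and -1.30 at 5, 10, 15, 20, 25 and 30 min, a mean of -1.98 ± 0.149 (SE, n = 6, limma adjusted p = 1.52e-06), or 0.253 of the untreated level. The next lowest were MUD2 at -0.81, -0.83, -0.73, -0.65, -0.40 and -0.43 (mean -0.64 ± 0.0471 SE, n = 6, limma adjusted p = 1.28e-06), SAD1, a gene of tri-snRNP assembly, with a mean of -0.63, and PRP24, the U6 recycling factor, with -0.62. All 4 lay below 0 at 6 of 6 times.

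SLU7 was the highest member, at 0.91, 0.87, 1.29, 1.14, 1.01 and 0.92 (mean 1.02 ± 0.0644 SE, n = 6, limma adjusted p = 4.55e-07), or 2.03-fold. CBC2, the small cap-binding subunit gene, had a mean of 0.92 ± 0.0586 (SE, n = 6, limma adjusted p = 5.14e-07), but 0.19 with the treated RNA in Cy5, where it was not called, and 1.64 in Cy3. Its partner gene STO1 had an exon probe mean of -0.47. SNT309, of the Prp19 complex, was at 0.79, 0.61, 0.96, 0.99, 0.72 and 0.62 (mean 0.78), and SNU13 had a mean of 0.74. PRP19 itself was not called (0.022, limma adjusted p = 0.68).

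The LSM genes were higher in ethanol at all 6 times except LSM7. LSM5 led with 0.85, 0.63, 0.82, 1.32, 1.00 and 0.88 (mean 0.92 ± 0.0762 SE, n = 6, limma adjusted p = 2.8e-06), then LSM2 with a mean of 0.60, LSM4 with 0.44, LSM8 with 0.43, LSM3 with 0.23 and LSM6 with 0.23. The mean of LSM6 was -0.12 in Cy5 and 0.57 in Cy3. LSM7 was at -0.27, -0.31, -0.28, 0.22, -0.16 and 0.11, mostly below 0 and not called (mean -0.12, limma adjusted p = 0.122), although its intron and junction probes had means of 0.22 and 0.47, so the probes of that gene disagree. The difference between the ring's direction in ethanol and in 3-AT was not tested, since the courses come from separate tables.

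**Figure D4:**
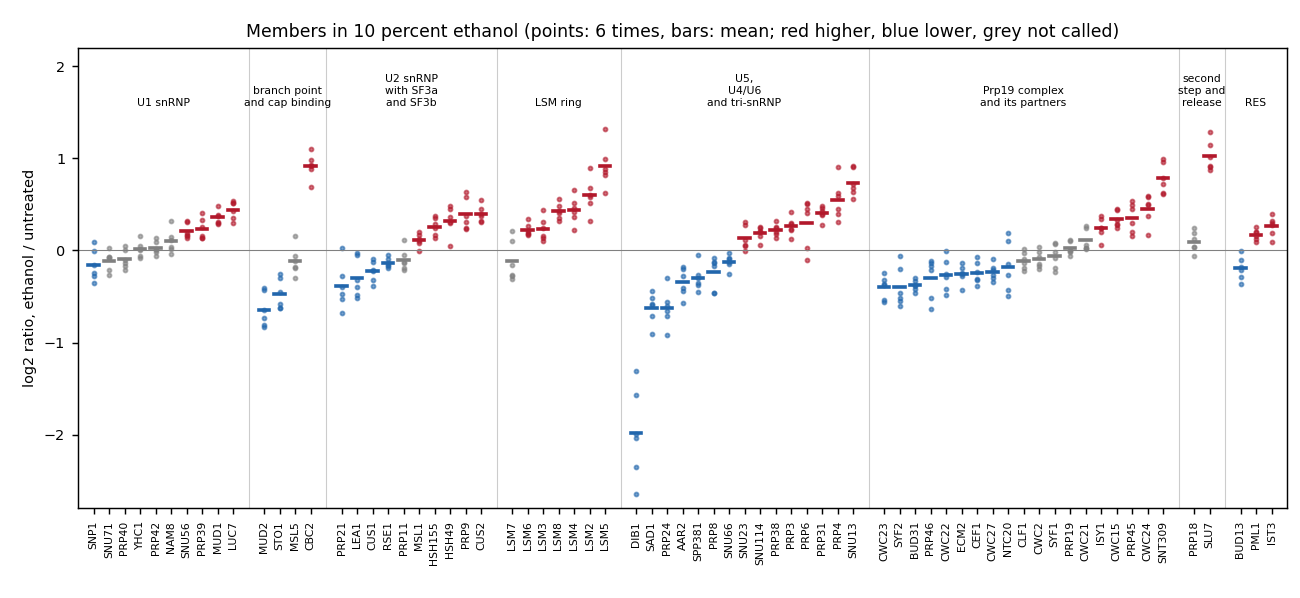
Log2 ratio of 10% ethanol over untreated wild type (y axis) for the 70 members (x axis, by role), with a point for each of 6 times and a bar at the mean, coloured by the call. DIB1 lies between -2.65 and -1.30, SLU7 between 0.87 and 1.29, and 6 of 7 LSM ring genes are called higher.

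The 6 deletion strains, each lacking a factor of RNA decay, processing or termination, were compared with wild type. With 1 dye-swapped pair a strain there is no replicate and no test, so a level counts as past the fold when the pair's mean is at least 0.5 from 0 and both arrays have its sign. The xrn1 deletion, which lacks the cytoplasmic 5′ exonuclease, had the most members past the fold. There 36 were higher and 4 lower, 57.1% of the members against 42.8% of all gene levels, and 51.4% of members against 26.4% of all gene levels were higher. The median was 0.53 for members and 0.070 for all gene levels. The upf1 deletion, without nonsense-mediated decay, had 14 higher and 4 lower, 25.7% against a background of 20.3% (11.2% higher, 9.12% lower). The other strains had few members past the fold, with 4 higher and 1 lower in rai1 (7.14%, background 12.5%), 0 and 5 in rrp6 (7.14%, background 14.5%), 0 and 2 in rtt103 (2.86%, background 5.64%) and 0 and 1 in ski2 (1.43%, background 4.92%). The members' median in xrn1 was 0.30 with the mutant RNA in Cy5 and 0.62 in Cy3, and in upf1 -0.009 and 0.41, whereas all gene levels had medians of 0.072 and 0.075 in xrn1 and of 0.008 and 0.001 in upf1.

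In xrn1, higher members past the fold were 7 of 10 U1 genes, 5 of 10 U2 genes, 3 of 7 LSM genes, 7 of 15 tri-snRNP genes, 9 of 19 of the Prp19 complex, and all of the second-step (2 of 2) and RES genes (3 of 3), and 0 of 4 of the branch point and cap group. Of all gene levels 26.4% were higher past the fold, and a group of 4 is too small to set apart from that share. LSM8 was highest, at 1.29 in Cy5 and 2.07 in Cy3 (mean 1.68), and in the other strains it lay between 0.037 and 0.40. CWC15, a Prp19-complex partner, was next in xrn1 at 1.28 and 1.83 (mean 1.56), and was also past the fold in rai1 at 0.55 and 1.03 (mean 0.79). In rai1 the highest member was LSM4, at 0.31 and 1.29 (mean 0.80). PRP8 itself was lower in xrn1 than in its wild type, at -0.84 and -0.47 (mean -0.655). In the other strains its pair means were above 0, at 0.099 to 0.43. Its arrays differed in sign in rrp6 (-0.106 in Cy5 and 0.344 in Cy3) and in upf1 (-0.123 and 0.321).

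In upf1, AAR2 stood at 1.64 and 1.41 on the dye-swapped arrays (mean 1.53) and CWC27, a cyclophilin-like gene of the spliceosome, at 0.99 and 1.39 (mean 1.19). The fold was passed upward by 4 of 10 U2 genes, 3 of 15 tri-snRNP genes, 5 of 19 of the Prp19 complex and 2 of 3 RES genes, and by 0 of 10 U1 genes and 0 of 7 LSM genes. Of all gene levels 11.2% passed it upward, and a count of 0 in groups this small lies near that share. Over the 6 strains in the order rai1, rrp6, rtt103, ski2, upf1 and xrn1, AAR2 had 0.052, 0.43, 0.15, 0.25, 1.53 and 1.06, so that upf1 and xrn1 were high. CWC27 had 0.38, 0.32, 0.28, 0.24, 1.19 and 0.41, which is high in upf1 alone. PML1 had 0.16, 0.16, -0.057, 0.11, 1.16 and 1.07, high in both upf1 and xrn1.

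PRP19, the ubiquitin ligase gene of its complex, was lower past the fold in all 6 strains. Its levels were -0.76, -0.58, -0.68, -0.70, -1.38 and -0.62 in the same order, and each of the 12 arrays was below 0, from -1.80 to -0.50. Of 976 gene levels 7 were lower past the fold in 6 strains, and PRP19 was the 1 member among them. In the prp8-1 course PRP19 was not called (-0.015 ± 0.0689 SE, n = 6, limma adjusted p = 0.846). The PRP19 means in the 3-AT and ethanol courses lay between -0.065 and 0.022. The prp8-1 strain also differed from its wild type in mating type, but its growth labels were not those of the deletion strains. Mating type as a source of the low PRP19 levels was therefore not tested. The labels do not say whether the 6 strains shared a wild type RNA, so the 12 arrays may not be independent. STO1 was lower past the fold in 4 strains, with exon probe levels of -0.26, -1.15, -0.68, -0.44, -0.997 and -0.88, and SNU13 in 3, with -0.36, -0.66, -0.21, -0.20, -0.57 and -0.70. The pair means of all 6 strains were below 0 for both. The arrays of STO1 differed in sign in rai1 (-0.721 in Cy5 and 0.193 in Cy3) and in ski2 (-0.929 and 0.044). The STO1 exon probe was lower with the mutant RNA in Cy5 in each strain (-1.41 and -0.59 in upf1). Its intron probe had 0.068 in rrp6 and -0.51 in upf1, and its junction probe gave opposite signs in the dyes in all 6 strains, at 0.44 and -0.77 in rrp6 for instance, so the low STO1 level rests on the exon probe. CWC2, an RNA-binding partner of the Prp19 complex, was past the fold in rrp6 (-0.535) and upf1 (-0.68).

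Levels above 0 in every strain were found for 17 of 70 members (24.3%) and for 157 of 976 gene levels (16.1%). This count used pair means and did not ask for the same sign on both arrays. LSM8 in ski2, for instance, was at -0.305 in Cy5 and 0.379 in Cy3. The members' median in ski2 was -0.134 in Cy5 and 0.164 in Cy3, against -0.013 and 0.012 for all gene levels. Over members the arrays of a pair correlated at -0.023 in rtt103 and -0.054 in ski2. Among the 17 members was LSM7, whose range over the strains was narrow, at 0.35, 0.34, 0.18, 0.31, 0.28 and 0.22. MUD1 differed between its probes in xrn1, where the exon probe was at 0.31, the intron probe at 0.26 and the junction probe at 1.41 (1.32 and 1.504 on the dye-swapped arrays). In rrp6 its junction probe was at 0.69 and its exon probe at 0.12. The plot of the deletion strains marks 6 genes over the other members.

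**Figure D5:**
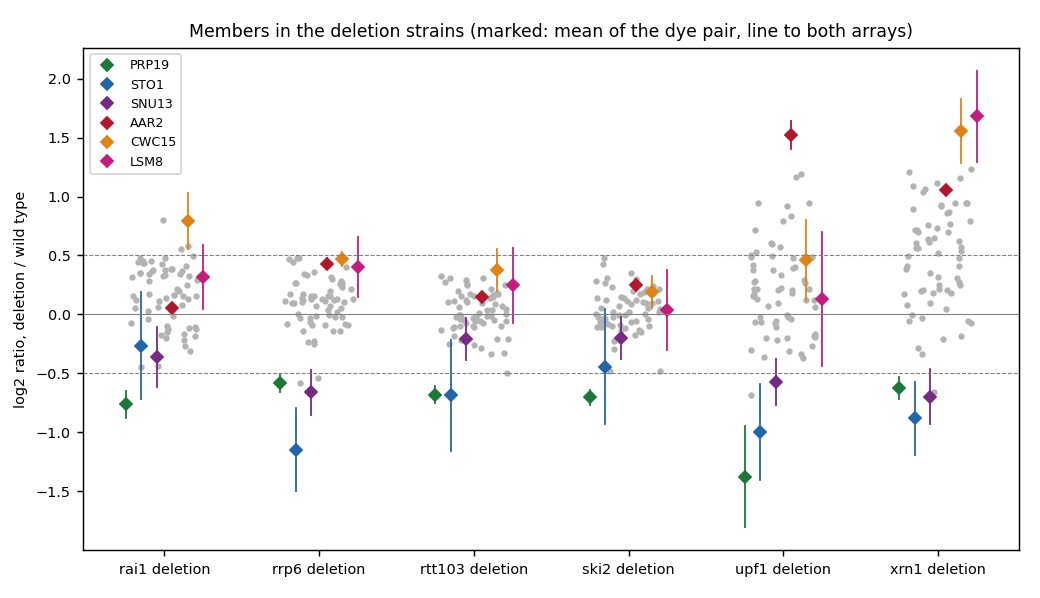
Log2 ratio of each deletion strain over wild type (y axis) for the 70 members (grey points), with 6 genes marked by the mean of their dye-swapped pair (diamond) and a line to both arrays, and dashed lines at the fold of 0.5. PRP19 lies below -0.5 in all 6 strains (-1.38 to -0.58), AAR2 reaches 1.53 in upf1, and LSM8 and CWC15 reach 1.68 and 1.56 in xrn1.

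Beside these members stand the other genes of the pathway on the arrays, 7 of the Sm ring, 8 helicases with Sub2, and LIN1 and YJU2. In wild type in 3-AT 3 Sm genes rose and 1 fell, and 4 helicase genes rose and 2 fell. In the gcn2 deletion the counts were 2 and 1, and 4 and 1. Of all gene levels 36.0% were higher and 31.2% lower in wild type, and 33.1% and 28.4% in the gcn2 deletion. In ethanol 5 Sm genes rose and 1 fell, SME1 at -1.72, and 1 helicase gene rose and 6 fell, with the export and splicing helicase gene SUB2 at -1.82 (limma). SME1 and SUB2 were the genes nearest to DIB1 in these lists. In prp8-1 5 Sm genes were higher and 1 lower, and in xrn1 1 of 7 Sm genes and 2 of 8 helicase genes were higher past the fold, with PRP43 at -0.88. Of all gene levels 30.6% were higher and 49.3% lower in ethanol, 34.7% and 44.2% in prp8-1, and 26.4% higher past the fold in xrn1.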

How the data were processed

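The members and the gene lists were chosen with earlier results of these data known. The deposited values are log ratios per spot of test over reference RNA, taken as log2. Log base, normalization and genome build: not given in the sources used here. Array medians lay between -0.0355 and 0.0346, so the authors' values were centred as deposited. Dye-swapped arrays share 1 direction, which the deleted genes bore out in both tables. The 4 or 6 spots of a probe and then the 2 arrays of a pair were averaged, giving 976 gene levels from 982 genes, whose names matched RefSeq by Entrez number. Intron, exon and junction probes were told apart by slide spacing and by prp8-1.

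Courses were fitted with limma 3.58.1 in R 4.3.3 (mean plus slope, Benjamini-Hochberg adjustment). A run on simulated data had independent noise and flat shifts, so it cannot check calls where the times of a course are linked. Deletion strains had no test. The number of arrays limits the precision.

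Named were, per course, the 4 highest and 4 lowest called members with the same sign in at least 5 of 6 times and the 2 steepest trends, up to 4 members of the wild type and gcn2 difference, the 2 highest and 2 lowest past the fold per strain, members with introns, and PRP8 in prp8-1. Other genes were named after their values were seen. Alternatives changed the spot summary, dye, centring, slope, time scale, noisy probes, fold, pairing by time, and times left out. Sequences and promoter motifs were not analysed here.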

Additional observations from a re-analysis of the deposited data

Results flagged for a closer look

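PML1 in wild type in 3-AT stood at 0.247 at 2 min, apart from its other 5 times, which lay between 0.434 and 0.494. It was the 1 such case among 44 series of 6 times, and chance flags about 1 in 20. The arrays of that 2 min pair correlated at -0.26 over members. The response to 3-AT differed between wild type and the gcn2 deletion for 12 of 70 members in the joint limma fit. That is 17.1%, against 19.5% of all gene levels, and the 4 largest differences are given here. The difference, wild type minus deletion, was -0.432 for PRP11, 0.243 for PRP8, -0.233 for LUC7 and -0.225 for SPP381. It was called with a slope for each strain and for 0 members without one.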

How the results depend on the processing

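Among the named genes and indices (with the prp8-1 junction indices, which are a description), 373 values under other settings kept their direction and side of the threshold, 20 no longer passed, 2 newly passed and 7 changed sign. With 1 time left out 331 kept both, 20 no longer passed and 3 changed sign. Without a slope term higher and lower members were 19 and 5 in wild type in 3-AT, 18 and 3 in the gcn2 deletion and 0 and 0 for their difference, and 4 were lower in the deletion over wild type. With Cy5 alone 14 were lower in wild type in 3-AT, with Cy3 alone 3 were higher in the difference, with log2 time 0 trends up were left in prp8-1, and with centred arrays 14 were lower in ethanol. The share of all gene levels is not given beside these counts, so they show only how far they depend on the setting.

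At a fold of 0.3, 28 members were higher and 5 lower in rai1, 12 higher in rrp6, 4 and 4 in rtt103, 4 and 2 in ski2 and 24 and 7 in upf1. At a fold of 1 these were 0 and 0 in rai1, 1 lower in rrp6, 0 lower in rtt103 and ski2, 3 and 1 in upf1 and 10 and 0 in xrn1. No count for xrn1 at 0.3 is given here. The share of all gene levels at these folds is not given either, so the counts show only how far they depend on the fold. At the fold of 0.5 rai1 had 7.14% of members past it, against 12.5% of all gene levels.

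With Cy3 alone LSM5 in the gcn2 deletion was 0.010, NAM8 in the deletion over wild type 0.036, and the ethanol intron indices of MUD1 and STO1 0.176 and -0.004. With Cy5 alone PRP39 and PRP8 in prp8-1 were -0.199 and -0.256 and the ethanol junction index of STO1 0.215. PRP8 there ranged from -0.026 to 0.074 with 1 time left out, and was -0.026, -0.008 and -0.002 without 2, 4 or 6 min. The cause was not tested.

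With 1 time left out, higher members ranged from 27 to 32 in wild type in 3-AT, 26 to 36 in the gcn2 deletion, 22 to 29 in the deletion over wild type, 18 to 22 in prp8-1, 30 to 32 in ethanol and 0 to 10 in the difference, and lower members from 7 to 10, 3 to 12, 6 to 10, 27 to 31, 20 to 25 and 2 to 8. Trends up ranged from 17 to 28, 17 to 27, 2 to 7 and 0 to 1 in the first 4, and trends down from 3 to 6, 6 to 15, 7 to 12 and 4 to 14. Counts of all gene levels moved too, as from 277 lower to 211 in the gcn2 deletion without the 15 or 20 min point. With the replicate block, which pairs the courses by time, the difference had 4 higher and 5 lower members. Dim probes could not be told by signal, as the files hold ratios.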
